A study of Mus musculus with 12 samples.

Results

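The 36 genes described here make or move cholesterol and fatty acids: the enzymes of the mevalonate and sterol pathway, the proteins that control it, the enzymes that build, desaturate and lengthen fatty acids, and the sterol exporters with the oxysterol receptor gene Nr1h2. They were chosen by name, out of 23479 gene symbols in the count tables, with earlier results of these data known. All 36 were listed, and 34 had enough reads to be tested. Scd1, with 20, 3, 12 and 9 reads in all in the 4 groups, and Fads2, with 1, 6, 7 and 4 reads, did not.

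RNA was sequenced from spleen CD4+ T cells of wild-type C57BL/6J mice (WT) and of Sirt2-/- mice (KO), in which the gene of the NAD-dependent deacetylase SIRT2 is disrupted. Cells enriched by removal of other cell types were taken either ex vivo (0 h) or after 24 h on plates coated with anti-CD3 antibody (clone 145-2C11) at 5 µg/ml, which stimulates the T-cell receptor. The cultures were in RPMI medium with fetal bovine serum, itself a source of cholesterol and fatty acids, whereas the 0 h cells were not cultured. Thus stimulation, culture and elapsed time cannot be told apart in any comparison of 24 h with 0 h. Each genotype at each time was a group of 3 libraries, 4 groups in all. Whether a group's libraries came from different mice is not in the labels, and p-values here speak only of the spread among libraries, which may be technical. Which part of Sirt2 was removed is not given in the sources used here.

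The libraries held 3.63 to 10.0 megareads in genes, and all levels are given in CPM, reads of a gene per megaread of its library after scaling by edgeR. CPM is a share of a library's reads. A rise or fall given here is therefore relative to other RNA, and amounts per cell were not measured. Sirt2 itself stood at 74.6 ± 9.42 CPM in WT 0 h and 12.4 ± 3.59 in KO 0 h, and at 67.2 ± 7.92 in WT 24 h and 13.2 ± 5.6 in KO 24 h (SD, n = 3 each), so the labels of genotype held in both pairs of groups. Summed over 7 T-cell markers, the 0 h libraries had 5560 to 6620 CPM and the 24 h libraries 2610 to 3000. Cd4 had a mean of 1650 CPM in WT 0 h and 584 in WT 24 h. The sum of 2 CD8 T-cell markers was 17.3 to 18.5 CPM in WT 0 h, 30.8 to 35.8 in KO 0 h and 8.09 to 14.7 at 24 h. The 6 B-cell markers summed to 16.8 to 29.9 CPM at 0 h and 2.93 to 7.22 at 24 h, the 7 myeloid markers to 7.26 to 14.7 and 2.51 to 9.53, and the 2 NK-cell markers to 14.1 to 28.1 and 0.201 to 1.03. Platelet markers summed to 1.24 to 5.63 CPM over all libraries, and 5 of 6 erythroid markers had 0 reads in every library.

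Cells make cholesterol from acetyl-CoA by way of mevalonate, squalene and lanosterol. The membrane-bound transcription factor SREBP-2, encoded by Srebf2, turns on most enzymes of this route when sterols in the endoplasmic reticulum run low: SCAP then carries it to the Golgi for cleavage, while INSIG proteins hold it back when sterols are plentiful. SREBP-1, from Srebf1, drives fatty acid enzymes in many tissues. The liver X receptors (LXR) work in the opposite direction: activated by oxysterols, they induce the exporters ABCA1 and ABCG1. T cells that begin to divide need sterols and fatty acids for new membrane, and in activated T cells LXR signalling is known to be damped while SREBP activity is induced.

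SREBP-2 binds short sterol regulatory elements, usually near boxes for the factors NF-Y and Sp1. The 250 bases before the start of 3 enzyme genes whose levels rose and of the exporter gene Abca1, whose level fell, are shown so that these letters can be seen in place. They are picked examples and do not stand for all rising or falling members. All are written 5′ to 3′ on the gene's strand, from RefSeq, build GRCm38.p6, and lie just upstream of the transcript start. Capitals mark exact matches to one spelling of the sterol regulatory element, TCACNCCAC, and to the NF-Y box CCAAT, which reads ATTGG on the other strand. Elements of another spelling were not searched for and would stay in lower case. The regions are chr13:119690101-119690350 for Hmgcs1 on the plus strand, chr13:8885356-8885605 for Idi1 on the plus strand, chr5:4104698-4104947 for Cyp51 on the minus strand and chr4:53159896-53160145 for Abca1 on the minus strand.
Hmgcs1: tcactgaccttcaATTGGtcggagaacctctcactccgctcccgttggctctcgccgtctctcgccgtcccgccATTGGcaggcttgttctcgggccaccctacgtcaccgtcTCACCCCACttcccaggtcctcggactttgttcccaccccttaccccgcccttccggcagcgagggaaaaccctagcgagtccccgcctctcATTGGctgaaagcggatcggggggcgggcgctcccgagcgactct
Idi1: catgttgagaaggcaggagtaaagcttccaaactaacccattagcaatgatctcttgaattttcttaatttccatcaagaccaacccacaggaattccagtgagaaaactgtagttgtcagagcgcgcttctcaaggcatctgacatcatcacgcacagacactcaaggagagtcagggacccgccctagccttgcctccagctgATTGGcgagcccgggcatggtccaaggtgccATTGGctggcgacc
Cyp51: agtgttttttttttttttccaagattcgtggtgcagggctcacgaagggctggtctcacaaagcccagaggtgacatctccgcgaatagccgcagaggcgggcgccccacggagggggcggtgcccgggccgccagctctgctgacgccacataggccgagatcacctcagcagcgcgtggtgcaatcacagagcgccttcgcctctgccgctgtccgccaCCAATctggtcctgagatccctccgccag
Abca1: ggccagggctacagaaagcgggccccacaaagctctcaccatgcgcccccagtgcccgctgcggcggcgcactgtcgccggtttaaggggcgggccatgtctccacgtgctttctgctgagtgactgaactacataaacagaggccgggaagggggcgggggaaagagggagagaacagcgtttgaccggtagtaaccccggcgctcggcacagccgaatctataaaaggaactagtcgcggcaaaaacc
Hmgcs1 held TCACNCCAC once, at position -137 counted from the start, with 3 NF-Y boxes around it. Idi1 had 2 NF-Y boxes, Cyp51 had 1, and the Abca1 stretch had neither motif.

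The RefSeq promoter table, which covers 250 bases before to 50 after each start, had entries for 28 of the 36 genes. Both strands were searched, and a gene was counted when any of its entries held the motif. TCACNCCAC was present in 1 of the 28 genes, Hmgcs1, and in 1.44% of all 27025 genes of the table. CCAAT was present in 21 of the 28 (75%), against 41.1% of all genes, and the GC box GGGCGG, a letter pattern read by Sp1, in 22 of the 28 (78.6%), against 38.2%. Of the 15 sterol enzymes with an entry, 14 held CCAAT, the exception being Acat2. Among members with an entry, 9 of the 12 called higher over time in WT held CCAAT, and 2 of the 3 called lower. Dhcr7, which fell in both genotypes, held it, and Acaca and Nr1h2, which rose in both, did not. By single entries of the table, 1.24%, 37.4% and 35.7% of 32851 promoters held the 3 patterns. No one of the 3 patterns contains another. The shares of all genes cover every gene of the promoter table, with or without reads in these cells. Shares among the genes tested here were not computed, so the higher shares of the members may be those of expressed genes in general. These are matches of letters and carry no measurement of binding. A gene without TCACNCCAC may hold a sterol regulatory element of another spelling, so its absence does not show that a gene lacks one.

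Over 24 h of anti-CD3, the sterol enzymes Acat2, Hmgcs1, Idi1, Sqle and Cyp51, the fatty acid enzymes Fasn and Acaca and the receptor gene Nr1h2 rose in both genotypes, whereas the exporters Abca1 and Abcg1, the desaturase Scd2 and the last sterol enzyme Dhcr7 fell in both. In WT, 15 of 34 tested members were higher, 5 were lower and 14 did not pass, by edgeR's quasi-likelihood test with Benjamini-Hochberg adjustment over 10981 genes and a threshold of 0.05. Of all genes tested, 20.2% were higher and 20.5% lower in WT. In KO, 11 members were higher, 5 lower and 18 did not pass, against 19.4% and 21% of all genes. The share of higher members thus stood above that of all genes and the share of lower members below it, in each genotype. As the members were chosen with earlier results known, this is a description. The same shares of all genes stand beside the counts by role given below. A count near them says nothing particular about its list. The median log2 change of the members was 0.237 in WT and 0.175 in KO, and that of all genes 0.0027 and -0.00279. Without the first KO 24 h library the count of higher members in KO was 7. Scaling by library size alone, which moved the median of all genes up by 0.203 log2 in WT and 0.242 in KO, gave 19 higher and 4 lower members in WT and 17 and 4 in KO.

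By genotype, 8 genes were called higher in both genotypes (Acat2, Hmgcs1, Idi1, Sqle, Cyp51, Fasn, Acaca and Nr1h2) and 4 lower in both (Dhcr7, Scd2, Abca1 and Abcg1). Another 7 were called higher in WT alone (Msmo1, Hsd17b7, Insig2, Srebf2, Stard4, Elovl1 and Fads1) and 3 in KO alone (Fdps, Lss and Insig1). Srebf1 was called lower in WT alone and Ebp in KO alone. For none of these did the test of the difference between the 2 changes pass, as given further on. The other 10 (Mvk, Pmvk, Mvd, Fdft1, Tm7sf2, Nsdhl, Sc5d, Scap, Elovl5 and Elovl6) were called in neither. Depth was unequal: the KO 24 h libraries had 4.87, 5.33 and 3.63 megareads in genes and the WT 24 h libraries 4.68, 8.02 and 6.98. Its part in the calls of 1 genotype alone was not tested. The fitted change had the same sign in WT and KO for 30 of the 34, in comparisons that share no library. The share of same signs over all genes was not computed, so this count is not particular to the members.

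**Figure D1:**
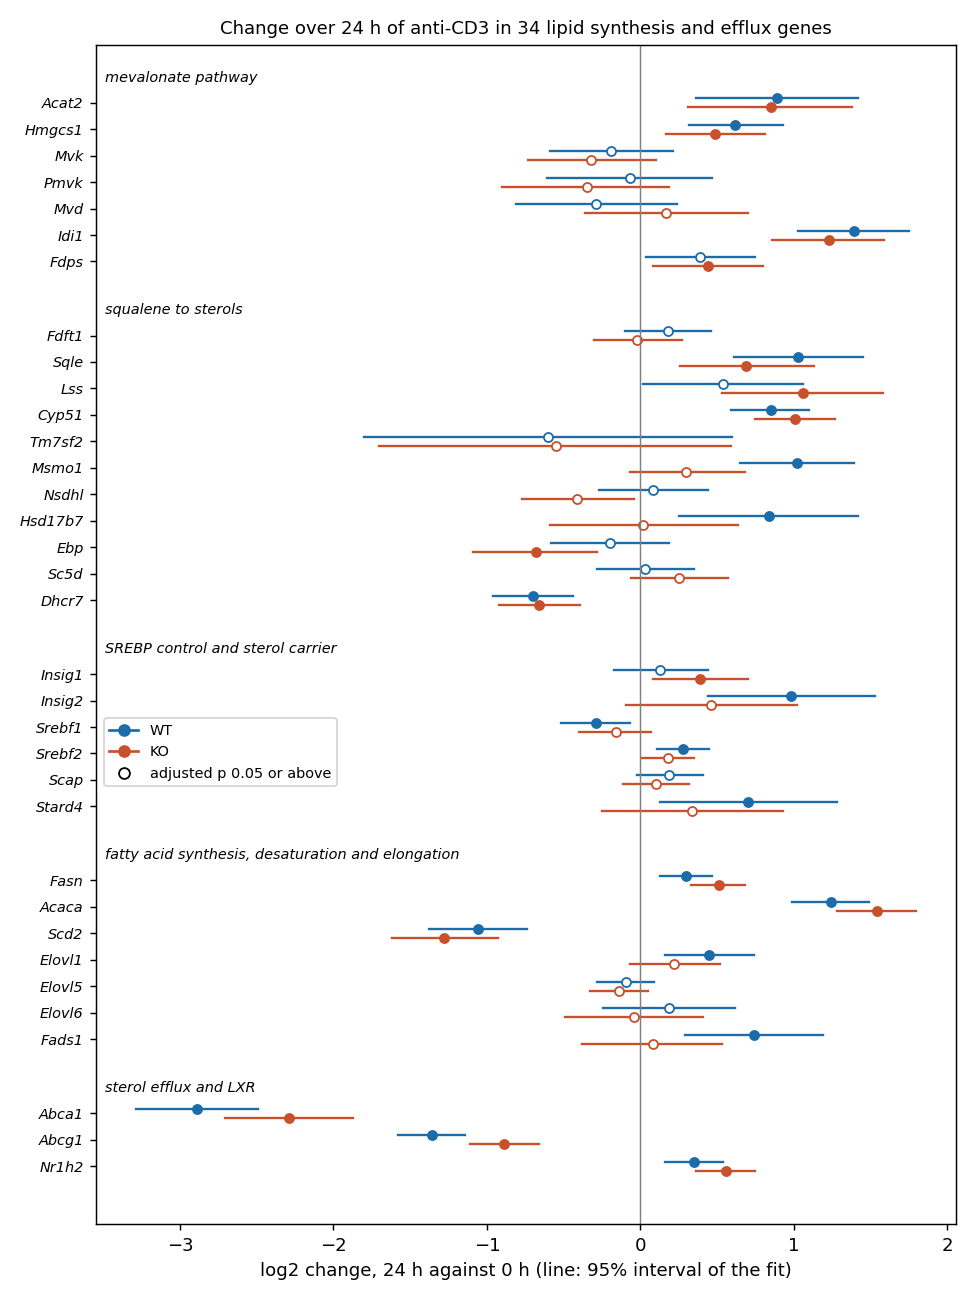
Fitted log2 change from 0 h to 24 h of anti-CD3 (x axis) for the 34 tested genes, grouped by role, with WT in blue and KO in orange. Points are fitted changes, lines are 95% intervals, and open points did not pass at an adjusted p of 0.05. Idi1 and Acaca lie above 1 in both genotypes, and Abca1 lies at -2.89 in WT and -2.29 in KO.

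In the mevalonate pathway, 3 of 7 enzymes rose in WT and 4 of 7 in KO, and none fell. Idi1, the isomerase that supplies dimethylallyl diphosphate, changed most. Its levels were 17.8, 10.8 and 21.3 CPM in the WT 0 h libraries and 46.4, 42.6 and 42.5 in WT 24 h. In KO they were 14.7, 19 and 22.2 CPM at 0 h and 36.8, 42.1 and 50.8 at 24 h. Every 24 h library stood above every 0 h library, whatever the genotype. The rise was 2.62-fold in WT (log2 1.39, SE 0.179, 95% interval 1.03 to 1.75, adjusted p = 1.51e-08 by edgeR's quasi-likelihood test) and 2.34-fold in KO (log2 1.23, SE 0.181, interval 0.86 to 1.59, adjusted p = 3.43e-07). Of the 50-base words of Idi1's exons, 25.3% also occur in other genes, one of which, Gm48574, overlaps it on the other strand.

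Hmgcs1, the cytosolic synthase that makes HMG-CoA, had 36, 28.5 and 29.9 CPM in WT 0 h and 43.2, 51.4 and 49.9 in WT 24 h. The KO libraries read 22, 33.7 and 38.2 CPM at 0 h and 45.8, 37.7 and 46.8 at 24 h, so the KO groups overlapped at their edges while the WT groups were apart. Its log2 change was 0.62 (SE 0.153) in WT and 0.49 (SE 0.158) in KO. The call in KO was lost without the first KO 0 h, the first KO 24 h or the third KO 24 h library. Acat2, the thiolase of the first step, went from 6.05 ± 1.15 to 11.3 ± 1.07 CPM in WT and from 6.65 ± 1.56 to 11.9 ± 1.34 in KO (SD, n = 3), log2 changes of 0.89 and 0.85. The KO call of Acat2 was lost without the first KO 24 h library (adjusted p = 0.0516, edgeR), and 39.1% of its 50-base words also lie in Acat3 or Tcp1, so its level is uncertain. Fdps, which makes farnesyl diphosphate, had log2 changes of 0.39 in WT (adjusted p = 0.0717, edgeR) and 0.44 in KO (adjusted p = 0.0432). Its call in KO was lost without the second KO 0 h, the first KO 24 h or the second KO 24 h library and under DESeq2. Of the 50-base words of Fdps, 26.2% also occur in other genes, among them Gm43738, which overlaps it on the same strand.

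The 3 middle steps from mevalonate to isopentenyl diphosphate did not follow. The kinase Mvk had log2 changes of -0.19 in WT and -0.32 in KO, Pmvk -0.07 and -0.35, and the decarboxylase Mvd -0.29 and 0.17, none past the threshold. Their mean levels lay between 8.06 and 16.9 CPM in all 4 groups.

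From squalene to cholesterol, 4 of 11 enzymes rose and 1 fell in WT, and 3 rose and 2 fell in KO. Sqle, the squalene epoxidase, had 9.53, 10.1 and 16.9 CPM in WT 0 h and 28.3, 22.8 and 24.6 in WT 24 h. In KO the values were 10.2, 12.9 and 17.7 CPM at 0 h and 20.7, 23.2 and 20.9 at 24 h. No 24 h library of either genotype overlapped the 0 h libraries. The fold rise was 2.04 in WT (log2 1.03, SE 0.208) and 1.62 in KO (log2 0.69, SE 0.214), and the KO call was lost without the first KO 0 h library (adjusted p = 0.061, edgeR).

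Cyp51, the lanosterol demethylase, rose with little spread between libraries. It had 30.1, 30.3 and 34.3 CPM in WT 0 h and 58.3, 55.2 and 57.5 in WT 24 h. The KO libraries read 28.7, 28.2 and 30.3 CPM at 0 h and 55.8, 56.4 and 63.4 at 24 h, and the ranges of the 2 genotypes overlapped at each time. The change was 1.8-fold in WT (log2 0.85, SE 0.125, adjusted p = 2.56e-07, edgeR) and 2.01-fold in KO (log2 1.01, SE 0.128, adjusted p = 9.82e-09). Lss, which closes the sterol rings, went from 8.38 ± 2.45 to 12.4 ± 2.3 CPM in WT (log2 0.54, adjusted p = 0.0887, edgeR) and from 7.72 ± 2.52 to 15.8 ± 1.94 in KO (SD, n = 3; log2 1.06, adjusted p = 0.00104).

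Msmo1, the sterol C4-methyl oxidase, had 15.2, 15.5 and 14.6 CPM in WT 0 h and 31.7, 30 and 30.4 in WT 24 h, a rise of 2.03-fold (log2 1.02, SE 0.184, adjusted p = 1.24e-05, edgeR). In KO it had 14.8, 17.3 and 26.4 CPM at 0 h and 24.9, 26.9 and 18.7 at 24 h, groups that overlapped (log2 0.30, SE 0.188, adjusted p = 0.203, edgeR). Left without the third KO 0 h library, the highest of its group, the KO change was 0.60 with an adjusted p of 0.0131 (edgeR). Of 14 alternative fits only 2 called the KO change of Msmo1, this one and scaling by library size alone. Hsd17b7, the ketoreductase of the same C4-demethylation complex, had 7.1, 4.29 and 6.76 CPM in WT 0 h and 9.04, 10.4 and 12.7 in WT 24 h. The KO libraries had 4.93, 9.84 and 6.21 CPM at 0 h and 6.22, 7.86 and 6.97 at 24 h. Its log2 change was 0.84 (SE 0.29, adjusted p = 0.0181, edgeR) in WT and 0.02 (SE 0.305) in KO. The WT call was lost without the second WT 0 h library (adjusted p = 0.0985) or the third WT 24 h library (adjusted p = 0.0912).

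Dhcr7, the reductase of the last step to cholesterol, fell in both genotypes. It went from 66.2, 56.5 and 65.3 CPM in WT 0 h to 32.6, 38.6 and 43.8 in WT 24 h, and from 68.3, 54.7 and 60.6 in KO 0 h to 40.3, 41.4 and 34.6 in KO 24 h. No 24 h library reached a 0 h library. The fall was 1.63-fold in WT (log2 -0.70, SE 0.127) and 1.58-fold in KO (log2 -0.66, SE 0.131). Ebp, the sterol isomerase 2 steps earlier, went from 23.4 ± 7.05 to 20.4 ± 4.39 CPM in WT and from 26.1 ± 3.28 to 16.1 ± 1.25 in KO (SD, n = 3; log2 -0.20, adjusted p = 0.444, and -0.68, adjusted p = 0.00539, edgeR). With scaling by library size alone the KO fall of Ebp did not pass (adjusted p = 0.0653). Sc5d, the desaturase between them, had 25.1, 30.2 and 30.9 CPM in WT 0 h, 26.7, 25.7 and 37.7 in KO 0 h, 28.5, 29.2 and 30.8 in WT 24 h and 33.1, 40.5 and 32.6 in KO 24 h, with groups that overlapped over time in both genotypes. Fdft1, Nsdhl and Tm7sf2 were not called either, and Tm7sf2 was low, at 1.24 to 2.8 CPM by group.

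Taking the 18 sterol enzymes as one set, 7 rose, 1 fell and 10 did not pass in WT, and 7 rose, 2 fell and 9 did not pass in KO. Their median log2 change was 0.29 in WT and 0.21 in KO. Summed CPM of the 7 mevalonate enzymes went from a range of 90.1 to 122 over the 0 h libraries to 156 to 163 at 24 h. For the 11 later enzymes the sums were 228 to 278 at 0 h and 266 to 293 at 24 h.

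**Figure D2:**
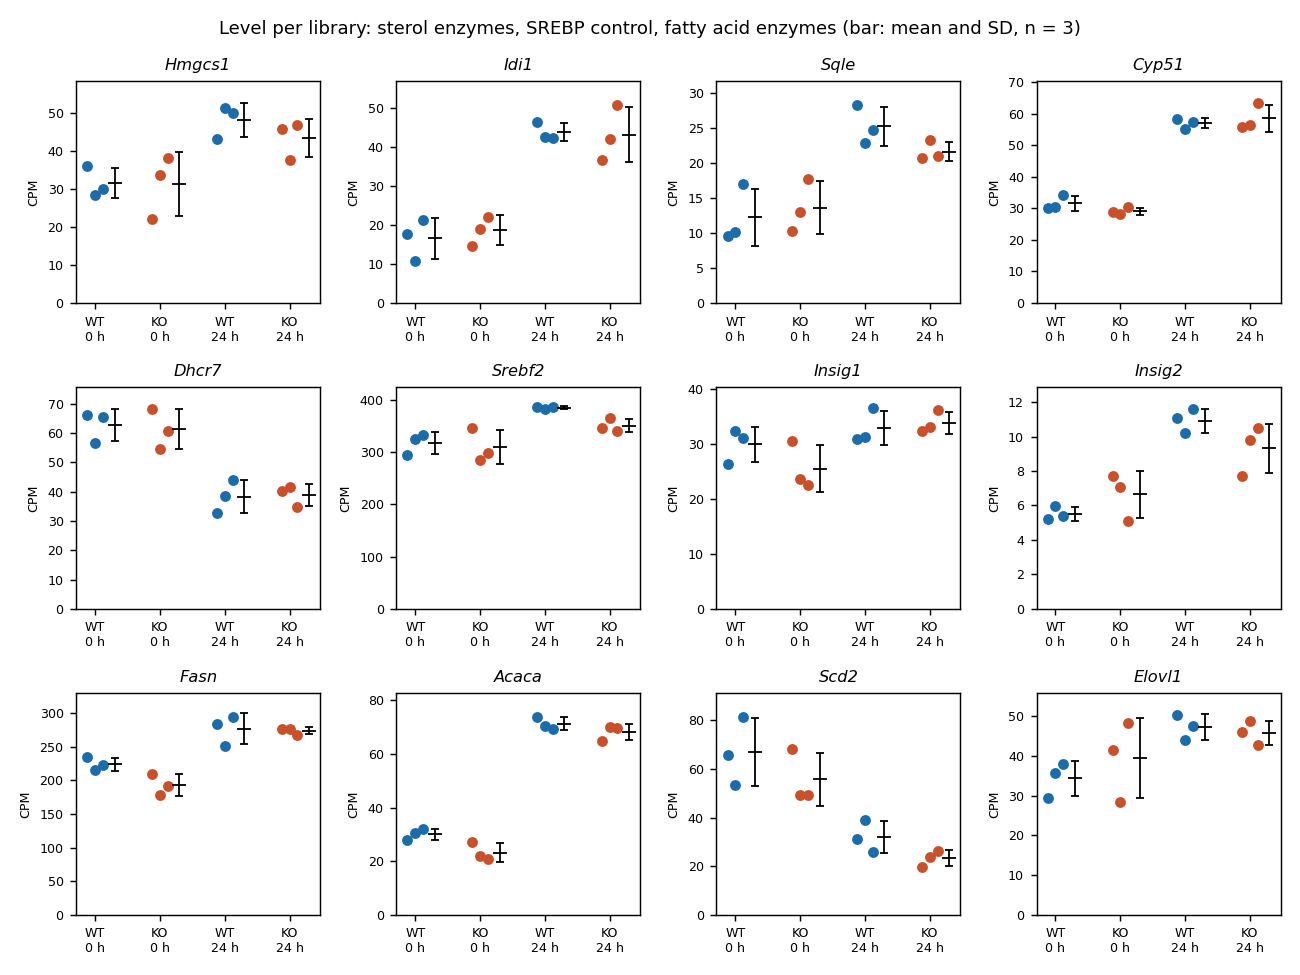
CPM in each library (y axis, starting at 0) for 12 genes in WT (blue) and KO (orange) at 0 h and 24 h, with mean and SD (n = 3) beside the points. Idi1, Sqle, Cyp51 and Acaca stand higher in all 24 h libraries, Dhcr7 and Scd2 lower, and Insig1 shows overlapping WT groups.

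The genes of the control system had fitted log2 changes between -0.29 and 0.98 in WT and between -0.16 and 0.46 in KO. Of its 6 genes, counting the sterol carrier Stard4, 3 were higher and 1 lower in WT, and 1 was higher in KO. Srebf2 had 294, 325 and 333 CPM in WT 0 h and 386, 382 and 387 in WT 24 h, groups that did not overlap (log2 0.28, SE 0.0838, 95% interval 0.11 to 0.45, adjusted p = 0.00608, edgeR). In KO it had 347, 285 and 298 CPM at 0 h and 347, 365 and 340 at 24 h, with the first KO 0 h library as high as the first KO 24 h library (log2 0.18, SE 0.0844, interval 0.01 to 0.35, adjusted p = 0.0897, edgeR). Without that 0 h library the KO change was 0.30 with an adjusted p of 0.00737 (edgeR). Of 14 alternative fits only 3, this one among them, called the KO change of Srebf2.

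Srebf1 had 74, 87.3 and 77.8 CPM in WT 0 h and 60.1, 61.2 and 73.5 in WT 24 h. The KO values were 79.4, 68.1 and 60.8 CPM at 0 h and 64.8, 57.5 and 65.2 at 24 h. The WT groups were just apart and the KO groups overlapped. The log2 change was -0.29 in WT (SE 0.114, adjusted p = 0.034, edgeR) and -0.16 in KO (SE 0.117, adjusted p = 0.286). The WT call was lost in 7 of 14 alternatives, among them DESeq2, no filter, library-size scaling and each of 4 single libraries left out (the second and the third of WT 0 h, the first and the second of WT 24 h). With library-size scaling the KO change turned to 0.08.

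Scap, the escort of the SREBPs, had 80.4, 76.2 and 97 CPM in WT 0 h, 99.5, 95.5 and 95.8 in WT 24 h, 83.3, 82.6 and 95.6 in KO 0 h and 89.3, 105 and 85.3 in KO 24 h. The time groups overlapped in both genotypes. Its log2 change was 0.19 in WT (SE 0.105, adjusted p = 0.14, edgeR) and 0.10 in KO (SE 0.107, adjusted p = 0.479). Without the third WT 0 h library the WT change was 0.33 with an adjusted p of 0.0208 (edgeR). Of 14 alternative fits only 2, this one among them, called the WT change of Scap.

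The INSIG genes encode the anchors that keep SCAP in the endoplasmic reticulum, and Insig1 is itself a target of SREBP. Insig1 had 26.3, 32.4 and 31 CPM in WT 0 h and 30.9, 31.2 and 36.6 in WT 24 h, and 30.5, 23.6 and 22.6 in KO 0 h and 32.4, 33 and 36.1 in KO 24 h. The WT groups overlapped and the KO groups did not (log2 0.13, SE 0.15, adjusted p = 0.503, and 0.39, SE 0.155, adjusted p = 0.0404, edgeR). Under DESeq2 and without any 1 of 5 KO libraries (all but the first of KO 0 h), the KO call was lost. Insig2 had 5.2, 5.96 and 5.38 CPM in WT 0 h and 11.1, 10.2 and 11.6 in WT 24 h, a rise of 1.98-fold (log2 0.98, SE 0.271, adjusted p = 0.00285, edgeR). In KO it had 7.72, 7.1 and 5.08 CPM at 0 h and 7.69, 9.79 and 10.5 at 24 h, groups that just overlapped (log2 0.46, SE 0.275, adjusted p = 0.182, edgeR). Stard4, which carries sterol between membranes, went from 6.59 ± 1.26 to 10.6 ± 3.82 CPM in WT, groups that overlapped (SD, n = 3, log2 0.70, adjusted p = 0.044, edgeR). This call was lost under DESeq2, with a replicate block and without the first or the third WT 0 h or the third WT 24 h library. In KO its log2 change was 0.34 (adjusted p = 0.374, edgeR).

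Levels of different genes can be compared only per length, here as CPM per kilobase of annotated exon. On that scale Srebf2 stood at 44.2 in WT 0 h and 53.6 in WT 24 h, against 14.2 and 11.5 for Srebf1. Insig1 stood at 9.68 and 10.6 and Insig2 at 1.59 and 3.16. The order within each pair was the same in KO, where Srebf2 had 43.2 and 48.8, Srebf1 12.3 and 11.1, Insig1 8.27 and 10.9, and Insig2 1.91 and 2.69, at 0 h and 24 h.

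Of the 9 genes of fatty acid synthesis, desaturation and elongation, 7 were tested; 4 rose and 1 fell in WT, and 2 rose and 1 fell in KO. Acaca encodes acetyl-CoA carboxylase, which makes the malonyl-CoA used by the synthase. It had 27.7, 30.6 and 31.8 CPM in WT 0 h and 73.9, 70.5 and 69.3 in WT 24 h, and 27.1, 21.8 and 20.7 in KO 0 h and 64.8, 70.1 and 69.7 in KO 24 h. The 24 h libraries all lay far above the 0 h libraries. The rise was 2.36-fold in WT (log2 1.24, SE 0.125, 95% interval 0.99 to 1.49, adjusted p = 2.05e-11, edgeR) and 2.9-fold in KO (log2 1.54, SE 0.13, interval 1.28 to 1.80, adjusted p = 1.21e-13). Of its 50-base words, 30.4% also occur in other genes, among them Gm5182.

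Fasn, the fatty acid synthase, had 235, 216 and 223 CPM in WT 0 h and 284, 251 and 295 in WT 24 h. KO libraries had 209, 178 and 191 CPM at 0 h and 277, 277 and 268 at 24 h. Neither pair of groups overlapped. Its change was smaller than that of Acaca, 1.23-fold in WT (log2 0.30, SE 0.0852, adjusted p = 0.00361, edgeR) and 1.42-fold in KO (log2 0.51, SE 0.0863, adjusted p = 4.63e-06).

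Scd2, a stearoyl-CoA desaturase that makes monounsaturated fatty acids, fell. It had 65.8, 53.3 and 81.4 CPM in WT 0 h and 31.1, 38.8 and 25.9 in WT 24 h, and 68.3, 49.4 and 49.3 in KO 0 h and 19.8, 23.9 and 26.1 in KO 24 h. The 0 h and 24 h libraries did not overlap. The fall was 2.08-fold in WT (log2 -1.06, SE 0.157, 95% interval -1.38 to -0.74, adjusted p = 7.59e-07, edgeR) and 2.42-fold in KO (log2 -1.28, SE 0.169, interval -1.62 to -0.93, adjusted p = 8.11e-08). Per kilobase of exon, Scd2 had 12.2 CPM in WT 0 h and Scd1 0.188, and Scd1 had no more than that in any group, so nearly all counted reads of this pair were those of Scd2. The B-cell, myeloid and NK-cell marker sums given above were also lower at 24 h, and their part in this fall was not tested.

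Among the elongases, Elovl1, which lengthens very long saturated chains, went from 34.4 ± 4.43 to 47.3 ± 3.3 CPM in WT (SD, n = 3; log2 0.45, adjusted p = 0.0108, edgeR), and without the first WT 0 h library the adjusted p was 0.0671. In KO its log2 change was 0.22 (adjusted p = 0.234, edgeR). Elovl5, which acts on polyunsaturated chains and was the most abundant of the 3 elongases per kilobase (37.5 to 41.7 CPM by group), had log2 changes of -0.09 and -0.14, with intervals of -0.28 to 0.09 in WT and -0.33 to 0.05 in KO. Elovl6 was not called either. Fads1, the delta-5 desaturase, had 7.97, 10.5 and 11.4 CPM in WT 0 h and 14.1, 19.3 and 16.7 in WT 24 h (log2 0.74, SE 0.223, adjusted p = 0.00606, edgeR), a call lost without the second WT 24 h library (adjusted p = 0.0528). In KO it had 13.3, 19 and 10.9 CPM at 0 h and 13.5, 18 and 13.9 at 24 h, groups that overlapped (log2 0.08, SE 0.224). Fads2, the delta-6 desaturase of the same chromosomal cluster, was almost without reads.

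Of all tested members Abca1 fell furthest in both genotypes. This transporter loads cholesterol onto apolipoproteins and had 41.6, 49.6 and 37.7 CPM in WT 0 h and 5.22, 6.09 and 5.86 in WT 24 h. In KO it had 29.2, 31 and 24.5 CPM at 0 h and 6.04, 4.37 and 7.22 at 24 h. The lowest 0 h library stood above the highest 24 h library by a wide margin in each genotype. The fall was 7.42-fold in WT (log2 -2.89, SE 0.197, 95% interval -3.29 to -2.49, adjusted p = 9.34e-17, edgeR) and 4.89-fold in KO (log2 -2.29, SE 0.21, interval -2.71 to -1.87, adjusted p = 1.35e-12). Abcg1, which exports sterol to lipoprotein particles, went from 125, 144 and 112 CPM in WT 0 h to 49.6, 47.4 and 51.2 in WT 24 h, and from 94.3, 93.8 and 104 in KO 0 h to 52.7, 58.4 and 46 in KO 24 h. Its fall was 2.57-fold in WT (log2 -1.36, SE 0.109) and 1.85-fold in KO (log2 -0.89, SE 0.112).

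Abca1 and Abcg1 are also expressed by myeloid cells, and the myeloid marker sum was 8.51 to 11.5 CPM in WT 0 h and 2.51 to 9.53 in WT 24 h, with B-cell and NK-cell sums lower at 24 h as well. Their part in the fall of the exporters was not tested. In bulk RNA, fewer cells of a type and less RNA per cell cannot be told apart. Of the 7 myeloid markers, Itgam had 4.36 to 6.97 CPM in the 0 h libraries and 0.249 to 1.38 at 24 h, a fall in both genotypes (log2 -2.43 in WT and -2.86 in KO), Lyz2 and Fcer1g were tested and did not pass, and Csf1r, Cd14, Adgre1 and Itgax had too few reads to be tested. At 0 h Adgre1 was at 0 in 5 of 6 libraries and Cd14 in all 6.

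Nr1h2, which encodes the receptor LXR-beta, went the other way. It had 109, 118 and 122 CPM in WT 0 h and 142, 145 and 158 in WT 24 h, and 109, 96 and 111 in KO 0 h and 136, 161 and 168 in KO 24 h, without overlap. The log2 change was 0.35 (SE 0.0948) in WT and 0.56 (SE 0.0964) in KO, so the receptor's own transcript rose while those of its 2 exporter targets fell. Of 11 other LXR partners and targets 7 were tested, and 3 fell in each genotype, with 0 higher in WT and 1 in KO. Of all genes, 20.5% were lower in WT and 21% in KO. In WT 4 of the 7 were not called. One gene of this list, Lpcat3, had higher means at 24 h. It went from 25.1 ± 4 to 32.2 ± 1.94 CPM in WT and from 25.5 ± 3.29 to 36.4 ± 4.81 in KO (SD, n = 3). The 3 that fell are named next. Smpdl3a, a phosphodiesterase gene, fell from 101 ± 12.6 to 29.1 ± 2.32 CPM in WT and from 106 ± 18.3 to 38.9 ± 2.27 in KO (SD, n = 3; log2 -1.78 and -1.44). Arl4c, a small GTPase gene, had log2 changes of -1.74 and -1.57, and Mylip, whose ubiquitin ligase degrades lipoprotein receptors, -1.22 and -1.03. The gene of the sister receptor, Nr1h3, had too few reads to be tested.

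**Figure D3:**
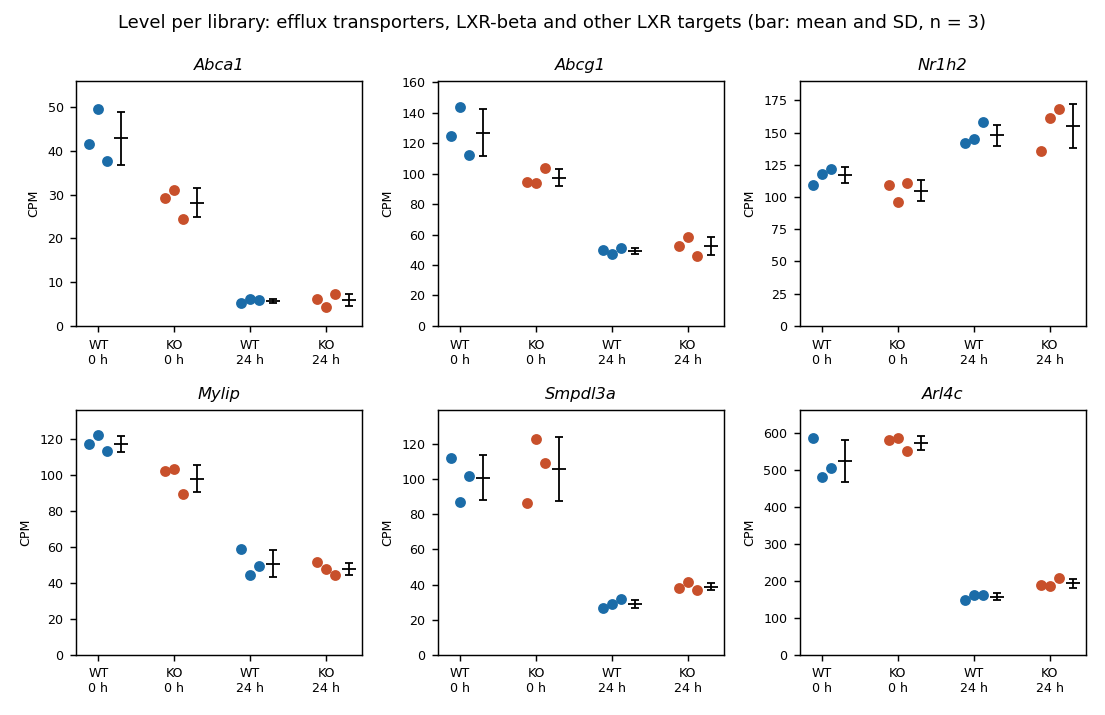
CPM in each library (y axis, starting at 0) for Abca1, Abcg1, Nr1h2 and the 3 other LXR targets that fell, in WT (blue) and KO (orange) at 0 h and 24 h, with mean and SD (n = 3). All but Nr1h2 are lower in every 24 h library, and at 0 h the KO libraries of Abca1 (24.5 to 31 CPM) lie below those of WT (37.7 to 49.6 CPM).

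Between the genotypes, none of the 34 tested members passed the threshold at 0 h, at 24 h or in the difference between the 2 time courses. At 0 h, 0 members were called by edgeR and 0 by DESeq2, against 0.118% of all genes higher and 0.228% lower in KO. At 24 h the counts were again 0 and 0, against 0.182% higher and 0.0911% lower. At an unadjusted p under 0.05 there were 5 members at 0 h, 3 at 24 h and 4 in the interaction, where all genes gave 8%, 7.06% and 5.24%. The data bound the size of a difference: the 95% interval of KO against WT lay within 1 log2 unit of 0 for 33 of 34 members at 0 h and 32 of 34 at 24 h. The widest bound was that of the low-count gene Tm7sf2, at 1.68 and 1.86.

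The 4 smallest p-values at 0 h belonged to the exporters and the 2 committed fatty acid enzymes, all with lower fitted levels in KO. Fads1, the other of the 5 members at an unadjusted p under 0.05, was higher in KO, with groups that overlapped. Its log2 difference was 0.52 (SE 0.226, 95% interval 0.07 to 0.98, unadjusted p = 0.0253, adjusted p = 0.539, edgeR). The Abca1 libraries of KO 0 h (29.2, 31 and 24.5 CPM) all lay below those of WT 0 h (41.6, 49.6 and 37.7), a log2 difference of -0.60 (SE 0.167, 95% interval -0.94 to -0.27, unadjusted p = 7.72e-04, adjusted p = 0.13, edgeR). Abcg1 was likewise apart, at 93.8 to 104 CPM in KO and 112 to 144 in WT (log2 -0.38, SE 0.104, interval -0.59 to -0.17, adjusted p = 0.119, edgeR). Acaca had 20.7 to 27.1 CPM in KO and 27.7 to 31.8 in WT (log2 -0.36, SE 0.134, interval -0.63 to -0.09, adjusted p = 0.396, edgeR). Fasn had 178 to 209 CPM in KO and 216 to 235 in WT (log2 -0.22, SE 0.0859, interval -0.39 to -0.04, adjusted p = 0.47, edgeR). These 4 were the members whose KO libraries all lay below the WT libraries at 0 h, and 0 members lay entirely above; among all genes 6.37% lay below and 6.04% above. Over 14 alternatives the smallest adjusted p of any member at 0 h ran from 0.057 to 0.505, so none passed under any of them.

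The KO 0 h libraries also differed in single markers. The CD8 marker Cd8b1 was higher (log2 0.85, adjusted p = 0.0176, edgeR). The B-cell marker Cd22 was lower (log2 -2.49, adjusted p = 0.0118, edgeR). Of 3 B-cell markers tested the other 2 were not called, and the median log2 difference of the 3 was 0.0386. The B-cell marker sum overlapped, at 16.8 to 28.6 CPM in KO and 21 to 29.9 in WT. The myeloid marker sum was 7.26 to 14.7 CPM in KO and 8.51 to 11.5 in WT. The part of these markers in the 0 h values above was not tested.

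At 24 h the exporters had a fitted log2 difference of -0.00 for Abca1 (95% interval -0.45 to 0.45) and 0.09 for Abcg1 (interval -0.14 to 0.32). The smallest p-value belonged to Scd2, at 19.8, 23.9 and 26.1 CPM in KO and 31.1, 38.8 and 25.9 in WT, where the highest KO library just overlapped the lowest WT library (log2 -0.47, SE 0.174, interval -0.83 to -0.12, adjusted p = 0.511, edgeR). Hsd17b7 followed, at 6.22 to 7.86 CPM in KO and 9.04 to 12.7 in WT (log2 -0.62, SE 0.295, interval -1.21 to -0.02, adjusted p = 0.696). Msmo1 had 18.7 to 26.9 CPM in KO and 30 to 31.7 in WT (log2 -0.37, SE 0.182, interval -0.74 to -0.01, adjusted p = 0.706). Sc5d had the opposite sign, at 32.6 to 40.5 CPM in KO and 28.5 to 30.8 in WT (log2 0.27, SE 0.157, interval -0.05 to 0.58, adjusted p = 0.798). Between the genotypes at 24 h, 2 members lay entirely above and 3 entirely below, against 5.74% and 7.19% of all genes.

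Whether the time course differed between genotypes was tested as an interaction, and no member passed; among all genes 0% were called with a log2 change more positive in KO and 0.00911%, a single gene, with one more negative in KO. The smallest p-value was that of Abcg1, whose log2 change was -1.36 in WT and -0.89 in KO, a difference of 0.48 (SE 0.156, 95% interval 0.16 to 0.79, unadjusted p = 0.00386, adjusted p = 0.806, edgeR). Msmo1 (1.02 in WT, 0.30 in KO) had a difference of -0.71 (SE 0.263, interval -1.24 to -0.18, adjusted p = 0.84). Fads1 (0.74 and 0.08) had -0.67 (SE 0.317, interval -1.31 to -0.03, adjusted p = 0.932), and Abca1 (-2.89 and -2.29) had 0.60 (SE 0.297, interval 0.00 to 1.20, adjusted p = 0.942). These values use the same libraries as the comparisons of genotype and of time above. The intervals of the interaction stayed within 1 log2 unit for 22 of 34 members; for the other members the interval reached past 1 log2 unit.

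**Figure D4:**
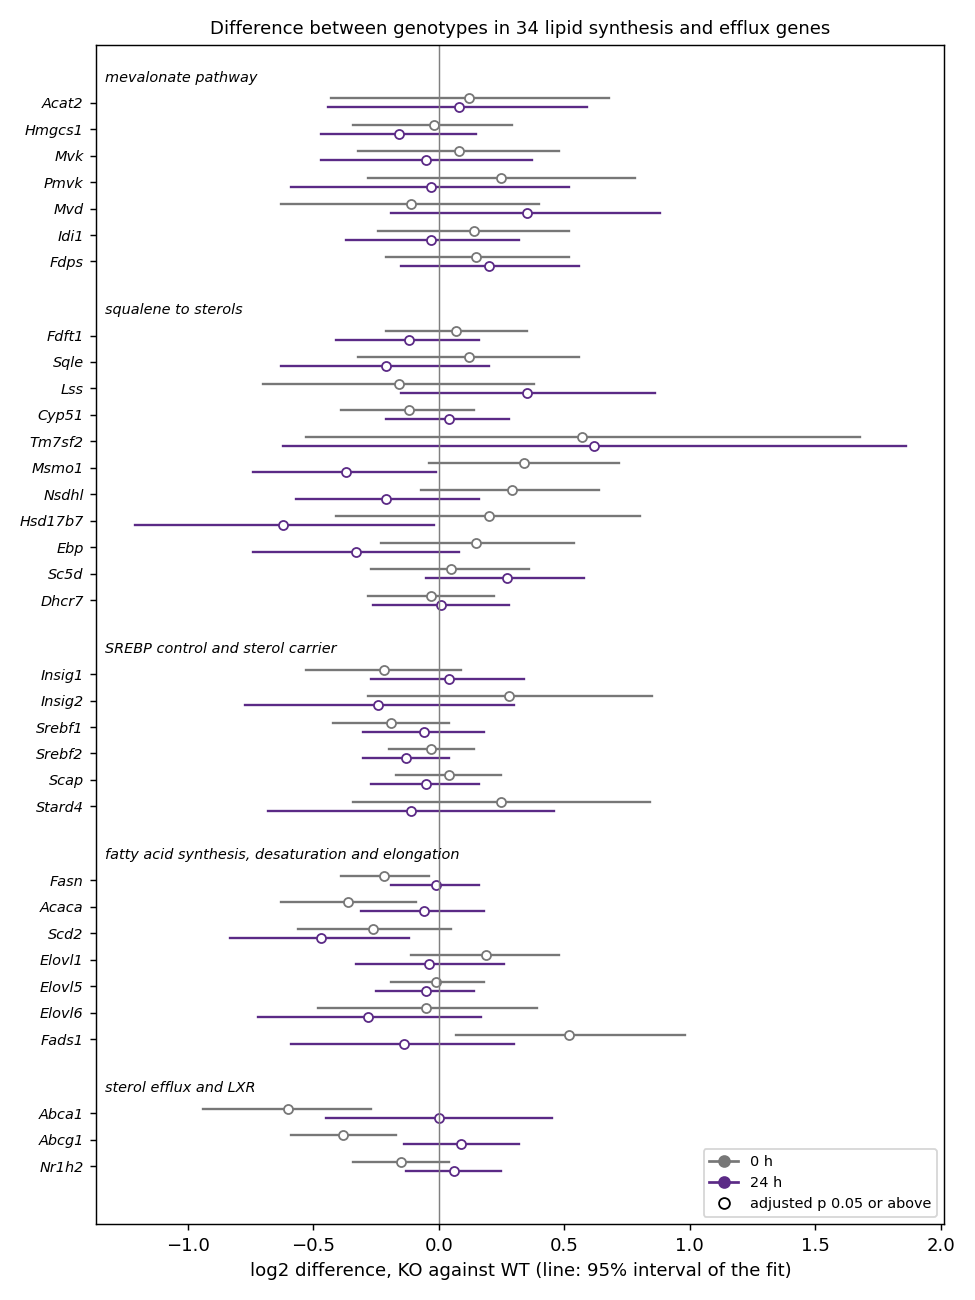
Fitted log2 difference of KO against WT (x axis) for the 34 tested genes, with 0 h in grey and 24 h in purple. Lines are 95% intervals, and all points are open because none passed at an adjusted p of 0.05. Abca1 lies at -0.60 at 0 h and at 0 at 24 h.

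Genes around the core pathway gave a mixed picture over time and, like the members, none was called between genotypes. The counts here and in the next paragraph stand beside these shares of all genes: 20.2% higher and 20.5% lower in WT, 19.4% and 21% in KO. Several lists lay near them. Of 12 genes that process, degrade or partner the SREBPs, 3 rose in each genotype and 0 fell, among them Erlin2 (log2 1.05 in WT and 0.81 in KO), which helps to remove ubiquitinated membrane proteins, and Sp1 (0.30 and 0.36). Of 14 genes of sterol uptake, storage and trafficking 13 were tested, and 4 rose and 2 fell in WT, and 5 and 3 in KO. Soat2, which esterifies cholesterol, went from 1.77 ± 0.123 to 6.26 ± 1.84 CPM in WT and from 2.29 ± 1.27 to 7.09 ± 2.1 in KO (SD, n = 3; log2 1.83 and 1.54). Lipa, the lysosomal lipase that frees sterol from its esters, fell from 118 ± 13.4 to 41.8 ± 6.26 CPM in WT and from 114 ± 8.6 to 52.1 ± 5.04 in KO (log2 -1.49 and -1.13). Tmem97, a sterol-binding membrane protein gene, rose by 1.09 and 1.55 on the log2 scale. Of 12 genes of the other isoprenoid branches, 0 were called in WT, and 1 rose and 1 fell in KO. These genes use isoprenoids for prenylation, dolichol and ubiquinone.

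In the supply of acetyl-CoA, malonyl-CoA and NADPH, 9 of 12 genes were tested, and 1 rose and 1 fell in WT, and 3 and 1 in KO. Acss2, which makes acetyl-CoA from acetate, fell (log2 -0.72 in WT and -0.80 in KO), and Mid1ip1, a partner of acetyl-CoA carboxylase, rose (0.56 in each). Of 18 genes of fatty acid activation, elongation and binding, 10 were tested, and 3 rose and 1 fell in WT, and 4 and 2 in KO. The binding protein gene Fabp5 was low but rose, from 2 ± 1.62 to 5.45 ± 1.45 CPM in WT and from 2.25 ± 0.175 to 6.76 ± 1.6 in KO (SD, n = 3; log2 1.51 and 1.58). Acsl4, an acyl-CoA synthetase for polyunsaturated chains, had log2 changes of 0.88 and 0.79, and Hsd17b12, a reductase of the elongation cycle, 0.68 and 0.94. Of 12 glycerolipid genes 2 rose and 2 fell in each genotype: Dgat2, of triglyceride synthesis, rose by 1.81 and 1.92 on the log2 scale from about 1 CPM, Agpat5 by 0.80 and 0.73, and Agpat1 fell by 0.72 and 0.64. Of 5 oxysterol enzyme genes 1, Cyp39a1, was tested, and it was not called.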

How the data were processed

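Libraries were made from 100 ng of total RNA with a NuGen Ovation Mouse kit that depletes ribosomal RNA with probes, per the labels' protocols. The deposited values were raw read counts per gene symbol, 1 table per library. The submitters' processing notes name STAR 2.6.0c, DESeq and the human build hg19, while the symbols are those of mouse, which leaves the build uncertain. How reads were counted (program, annotation, strand) is not given in the sources used here. The 5 closing entries that name no gene were left out; they held 22.8% to 35.4% (no feature), 0.412% to 0.576% (ambiguous) and 25.7% to 30.9% (not unique) of the reads listed. The ribosomal transcript Rn45s took 7.95% to 17.5% of gene reads.

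One edgeR 4.0.16 model (R 4.3.3, limma 3.58.1) of 4 groups was fitted with TMM scaling, the robust quasi-likelihood test and a minimum count of 10, for 10981 genes. CPM used the scaled library sizes. A standard error is the absolute log2 change over the root of the F statistic, and intervals are at 95%. No 2 replicates agreed within sampling noise (chi-square per gene 3.12 to 15.1). Scripts were tested on simulated data.

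Members, gene lists and marker lists were chosen with earlier results of these data known. Values in every library were given for members called in both genotypes with a log2 change of at least 1, for the 4 smallest p-values of each genotype comparison and for the SREBP control genes; other members were added to show their pathway step. Of each other list, up to 3 genes called in both genotypes were named. One gene that this rule would name is not reported here. Msmo1 stands under its older symbol Sc4mol. Exons for lengths and 50-base words came from GENCODE on GRCm38 and may differ from the annotation used for counting. Exons of 12 members overlap another gene. In 8 members over 5% of the 50-base words also occur in another gene: Acat2, Hmgcs1, Idi1, Fdps, Fdft1, Tm7sf2, Scap and Acaca. Alternatives were other scalings, DESeq2 1.42.0, other filters, Rn45s left out, a replicate block, 2-group fits and each library left out.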

Additional observations from a re-analysis of the deposited data

How the results depend on the processing

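In WT, 15 of the 20 members called over time were called under all 14 alternatives, the exceptions being Hsd17b7, Srebf1, Stard4, Elovl1 and Fads1. In KO, 10 of 16 were, the exceptions being Acat2, Hmgcs1, Fdps, Sqle, Ebp and Insig1. With library size only as the scaling, 17 members were higher in KO in place of 11, and with single libraries left out the count ran from 7 to 13. In WT that count ran from 13 to 15. DESeq2 gave 14 higher and 4 lower members in WT and 9 and 5 in KO. Among the members chosen by the naming rule, signs turned for 4 small changes that did not pass: with single libraries left out, Sc5d in WT ran from -0.03 to 0.11, Hsd17b7 in KO from -0.17 to 0.38 and Fads1 in KO from -0.07 to 0.34, and Srebf1 in KO was 0.08 with library size only; the cause was not tested. No alternative called a member between genotypes; the smallest adjusted p ran from 0.057 to 0.505 at 0 h, from 0.229 to 0.838 at 24 h and from 0.33 to 0.999 for the interaction.

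Samples with the same replicate number did not deviate together more than others. The correlation of deviations was -0.126 to 0.107 in 18 such pairs (1 pair over 0.1). In 36 pairs of different number it was -0.174 to 0.166. With 3 libraries per group this cannot exclude that the numbers mark a pairing. With a replicate block, 14 members were higher and 5 lower in WT, and 11 and 5 in KO. A fit of 2 groups was not run for the interaction, which needs all 4. Depth limits Tm7sf2, Scd1 and Fads2 most, since these had the fewest reads.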
